A study of Homo sapiens with 17 samples.

Results

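The effect of a TEAD inhibitor on newly made RNA was set against that of an integrin antibody in the human liver carcinoma line SNU-761. The comparison uses 10 of the 17 libraries of the series, chosen by their labels: VT107 at 2.15 µM (n = 2) with its DMSO control (n = 2), and intetumumab at 5 µg/ml (n = 3) with its isotype IgG1 control at 5 µg/ml (n = 3). All 4 groups were wild-type cells of the same line, labelled with thiouridine and collected at 4 h of treatment. The antibody was a biosimilar of intetumumab that the labels describe as directed against ITGAV and ITGB3, and the isotype came from human myeloma plasma. VT107 is described there as acting on all TEAD proteins. The lower doses, VT107 at 0.1 µM (n = 2) and intetumumab at 1.5 µg/ml (n = 3), entered the fit and are given as values beside the higher ones.

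TEAD proteins are the DNA-binding factors at the end of the Hippo pathway. They carry the coactivators YAP and TAZ to enhancers of genes for growth, matrix and cytoskeleton. Integrins that contain the ITGAV chain bind matrix proteins outside the cell and pass signals to focal adhesions and actin, and that route is known to feed into YAP and TAZ. The comparison therefore asks which transcripts answer to an agent inside the nucleus, which to an agent at the cell surface, and which to both. In SLAM-seq the thiouridine taken up during labelling is read as a T>C change, so that counts of such reads stand for RNA made during the labelling period.

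The deposited table identifies genes by Ensembl ID, and the reference tables used here matched 0 of these IDs to a symbol. Genes are therefore given as IDs, with no more than 2 upward and 2 downward per comparison, and their functions are not given. The liver and epithelial markers of the cell line, the targets of TEAD and the other pathway lists could not be looked up for the same reason. Labelled libraries held 435343 to 1778876 counts, and 10227 of the 19867 listed genes had enough counts to be tested. Levels are CPM (counts scaled to library size) after TMM normalisation, and folds are on the log2 scale of edgeR's fit of all 15 labelled libraries. A gene is called at an adjusted p under 0.05 (edgeR's quasi-likelihood F-test, Benjamini-Hochberg over all 10227 genes). The labels do not state whether replicates were separate cultures. The p-values therefore reflect the spread between these libraries, which may be technical.

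Calls were more numerous for VT107 2.15 µM than for intetumumab 5 µg/ml. VT107 lowered 112 genes (1.1% of those tested) and raised 43 (0.42%), 155 in all (1.52%). Intetumumab lowered 14 genes (0.137%) and raised 1, 15 in all (0.147%). The median called fall was -1.27 with VT107 and -0.85 with intetumumab. Most of the genes called were abundant ones: the median called gene stood at percentile 90.5 of tested genes by mean CPM for VT107 and at percentile 99.1 for intetumumab. The counts of calls are not a measure of which agent was stronger, since the groups differed in size and depth.

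The VT107 count rests on the shared estimate of spread. With each experiment fitted on its own, VT107 had 11 calls and intetumumab 8. DMSO replicates were the least alike of the 4 groups, with a Spearman correlation of 0.859 over tested genes against 0.888 to 0.936 in the other groups. The number for VT107 became 56 without DMSO replicate 1, 36 without VT107 replicate 1 and 23 without VT107 replicate 2. That for intetumumab became 0 without isotype replicate 1, 2 or 3 or without intetumumab replicate 1 (662, 702, 769 and 739 genes at an unadjusted p under 0.05 by edgeR), 8 without its replicate 2 and 7 without its replicate 3. Scaling by total count, which moved the median VT107 effect over all genes from 0.03 to 0.19, gave 55 rises and 65 falls with VT107.

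**Figure D1:**
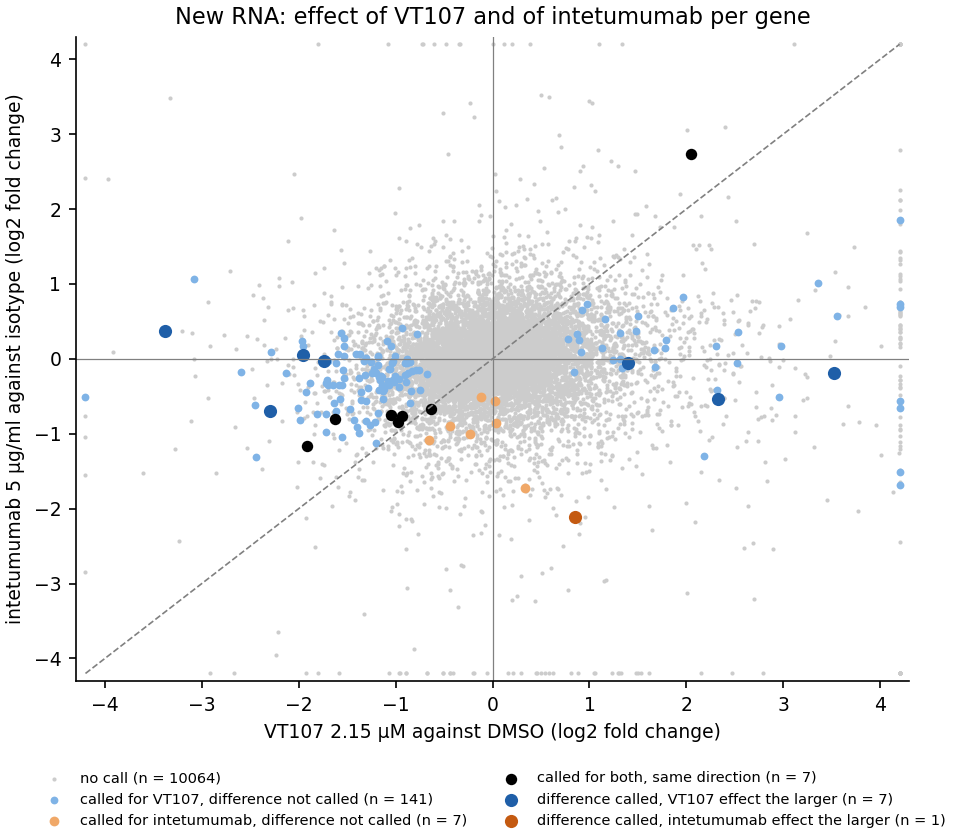
Each point is 1 of 10227 genes, with the log2 fold change of VT107 2.15 µM against DMSO on the x axis and of intetumumab 5 µg/ml against isotype on the y axis; the dashed line marks equal effects, and 150 genes beyond 4.2 on either axis are drawn at the edge. The 7 genes called for both agents lie in the lower left and upper right, while most of the 141 other genes called for VT107 with no called difference spread along the x axis.

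The direct test of the difference, (VT107 minus DMSO) minus (intetumumab minus isotype), called 8 genes (0.0782%), 4 in each direction. Of all genes, 9.06% had an unadjusted p under 0.05 in this test. In 7 of the 8 the VT107 effect was itself called and was the larger, and these are termed specific to VT107: 4 fell and 3 rose with it. The term refers to the larger effect and does not mean that the antibody had none. In 2 of the 7, intetumumab and isotype libraries also lay apart. ENSG00000171223, among these 2, had a lower value with intetumumab too (fold change -0.70, not called). The remaining gene was specific to intetumumab by the same rule and fell with the antibody. Groups of the agent concerned did not overlap in any of the 8. Of tested genes, 44.4% had VT107 and DMSO libraries apart and 15.3% had intetumumab and isotype libraries apart. The 8 were called from these same libraries, so their separation follows in large part from the choice and adds no support.

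ENSG00000125148 had the smallest p of the difference. It stood at 1817 and 1365 CPM in DMSO and at 391 and 428 CPM with VT107 2.15 µM. With the isotype it stood at 630, 639 and 659 CPM, and with intetumumab 5 µg/ml at 728, 651 and 617 CPM. VT107 libraries were thus all below DMSO, while antibody and isotype libraries overlapped. The VT107 fold change was -1.96 (SE 0.16, adjusted p = 1.31e-05) and the intetumumab one 0.05 (SE 0.13, adjusted p = 0.958). They differed by -2.005 (SE 0.21, adjusted p = 0.000508). This gene was higher in DMSO than with the isotype by 1.31 on the log2 scale (adjusted p = 3.96e-05), and VT107 took it below both controls. At the lower doses the difference was -1.73 (adjusted p = 0.00347), against the same controls.

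ENSG00000187193 showed the widest gap among the genes with a called negative difference. It was at 159 and 75.7 CPM in DMSO and at 9.91 and 12.6 CPM with VT107 2.15 µM (18 and 16 counts). It was at 128, 107 and 120 CPM with the isotype and at 148, 189 and 122 CPM with intetumumab. The isotype level lay within the range of the DMSO libraries, and the 2 VT107 libraries lay far below every other one. The difference was -3.75 (SE 0.51, 95% interval -4.83 to -2.66, adjusted p = 0.0103), where VT107 gave -3.38 (adjusted p = 0.000725) and intetumumab 0.37 (adjusted p = 0.801). At VT107 0.1 µM it stood at 40.7 and 68.6 CPM, between DMSO and the higher dose. The call was lost without DMSO replicate 1 (adjusted p = 0.0647), VT107 replicate 1 (0.0851) or VT107 replicate 2 (0.128).

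In the opposite direction, ENSG00000148926 rose with VT107 and not detectably with the antibody. Its level was 415 and 563 CPM in DMSO against 1232 and 1343 CPM with VT107 2.15 µM. The isotype libraries held 439, 440 and 428 CPM and the intetumumab libraries 385, 494 and 378 CPM. All antibody and isotype values fell near the DMSO level, and VT107 at 0.1 µM was already at 1187 and 971 CPM. The fold change was 1.40 with VT107 (SE 0.19, adjusted p = 0.0013) and -0.05 with intetumumab (95% interval -0.39 to 0.28), a difference of 1.45 (SE 0.24, adjusted p = 0.036). The call of the difference held in 10 of 20 alternatives, with values from 1.23 to 1.68. Of the libraries left out in turn, only without DMSO replicate 2 or intetumumab replicate 2 did it stay.

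The gene specific to intetumumab was ENSG00000083812. It stood at 58.9, 52.7 and 48.2 CPM with the isotype and at 15.7, 7.97 and 13.9 CPM with intetumumab 5 µg/ml (7, 6 and 11 counts). In the other experiment it was at 80.6 and 50.4 CPM in DMSO and at 136 and 99.6 CPM with VT107 2.15 µM. The antibody libraries were the lowest of all, and the VT107 libraries the highest. The fold change with intetumumab was -2.11 (SE 0.35, adjusted p = 0.0205), that with VT107 0.85 (SE 0.35, adjusted p = 0.301), and the difference 2.96 (SE 0.50, adjusted p = 0.036). The value at intetumumab 1.5 µg/ml lay between, at 23.9, 31.8 and 42.8 CPM, while VT107 0.1 µM gave -0.34 (adjusted p = 0.75), a sign opposite to the higher dose. The difference was called in 7 of 20 alternatives and lost when any 1 of the 10 libraries was left out (adjusted p = 0.0523 to 0.167).

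**Figure D2:**
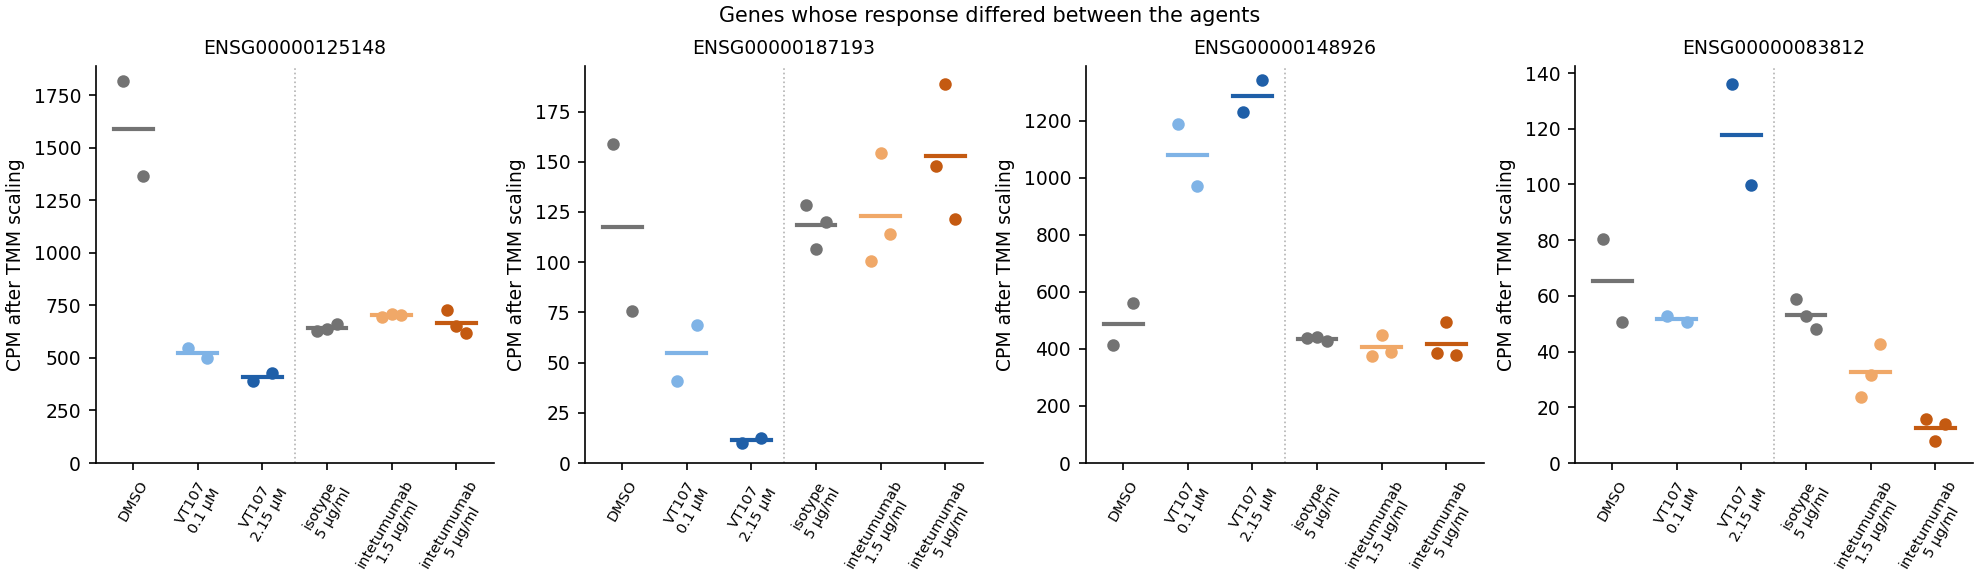
Points are libraries and bars are group means, as CPM after TMM scaling on a linear axis from 0, for 4 genes with a called difference; the dotted line separates the VT107 from the intetumumab experiment. The first 2 genes are lowest and the third highest with VT107 2.15 µM, and the fourth is lowest with intetumumab 5 µg/ml, down to 7.97 CPM.

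The other two genes with a negative difference had values of -1.60 and -1.71, and the other two with a positive one 2.87 and 3.71. In 5 of the 8 genes DMSO and isotype levels also differed from each other, where 1378 of all genes tested did (13.5%). Both controls also enter the difference by which the 8 were chosen, so that count is not independent of the choice. The positive pair stood lower in DMSO than with the isotype by -3.24 and -3.98, and their level with VT107 was -0.37 and -0.27 against that with intetumumab. ENSG00000148926, ENSG00000187193 and ENSG00000083812 were those with no called difference between controls (adjusted p = 0.56, 0.98 and 0.59). Solvent, isotype and experiment cannot be told apart in that contrast. At the lower doses the median difference was -1.27 for the 4 negative and 1.73 for the 4 positive genes. Those values share the control libraries against which the 8 genes were chosen, so their sign adds no support. Over all genes the lower doses gave 2 called differences (0.0196%), both negative, 1 of them among the 8.

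The number of called differences was 1 without DMSO replicate 1 or VT107 replicate 2, 25 without DMSO replicate 2, and 4 without VT107 replicate 1. It was 2 without isotype replicate 1, 2 or 3, 4 without intetumumab replicate 1 or 2, and 5 without intetumumab replicate 3. ENSG00000125148 was called in all 20 alternatives, with a difference between -2.20 and -1.81.

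Genes that moved alike were sought with a joint criterion. Taking for each gene the larger of its 2 unadjusted p, where both effects had the same sign, 2 genes (0.0196%) passed after Benjamini-Hochberg adjustment over all genes, and both fell. By each agent's own adjusted p, 7 genes were called for both, 6 falls and 1 rise, all in the same direction. All 7 had libraries of both agents outside the range of their controls. So had 7.46% of all genes tested, counting either direction for each agent. The 7 were called from these same libraries, so their separation follows in large part from the choice. None of the 7 had a called difference between agents, which does not mean that the effects were equal. The widest difference among the 7 was -0.82 (95% interval -1.275 to -0.37). That gene had -1.625 with VT107 and -0.80 with intetumumab. In 6 of the 7 the DMSO and isotype levels differed from each other, against 13.5% of all genes tested. The same control libraries enter the effects by which the 7 were chosen.

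ENSG00000106366 fell with both agents by a similar amount. DMSO libraries held 4670 and 4271 CPM and VT107 2.15 µM libraries 1940 and 2400 CPM. Isotype libraries held 1990, 2034 and 1877 CPM and intetumumab 5 µg/ml libraries 1205, 1088 and 1211 CPM. Treated libraries lay below their controls in both experiments, although the starting level in DMSO was more than that with the isotype. The fold changes were -1.04 (SE 0.14) and -0.75 (SE 0.11), and the adjusted p of the joint criterion was 0.0292. The difference of -0.29 had a 95% interval of -0.66 to 0.08. At the lower doses the fold changes were -0.68 with VT107 and -0.65 with intetumumab.

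ENSG00000142949 fell further with VT107. It went from 2523 and 3440 CPM in DMSO to 736 and 850 CPM with VT107 2.15 µM. In the antibody experiment it went from 849, 885 and 965 CPM to 361, 450 and 390 CPM. No treated library reached its control range. The VT107 library at 736 CPM lay below every isotype library, and the one at 850 CPM just above the lowest of them (849 CPM). The fold changes were -1.91 (SE 0.21) and -1.16 (SE 0.17; joint adjusted p = 0.0292). The 95% interval of the difference, -1.31 to -0.18, does not hold 0, but its p adjusted over all genes was 0.384.

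One gene rose with both agents. ENSG00000077063 had 15.5 and 18.4 CPM in DMSO and 81.5 and 59.6 CPM with VT107 2.15 µM. With the isotype it had 4.02, 10.8 and 8.56 CPM (3, 8 and 8 counts), and with intetumumab 49.3, 45.2 and 63.4 CPM. Every treated library of either agent, at either dose, stood above every control library of both experiments. The fold change was 2.05 with VT107 (SE 0.41, adjusted p = 0.0201) and 2.73 with intetumumab (SE 0.39, adjusted p = 0.0112), and the joint criterion did not pass (adjusted p = 0.217). The next gene upward by that criterion, ENSG00000073737, had 0 counts in both DMSO libraries, 18 and 24 with VT107, 24, 18 and 36 with the isotype and 54, 72 and 102 with intetumumab (joint adjusted p = 0.379). All its counts were multiples of 6, so that fewer reads may lie behind them.

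**Figure D3:**
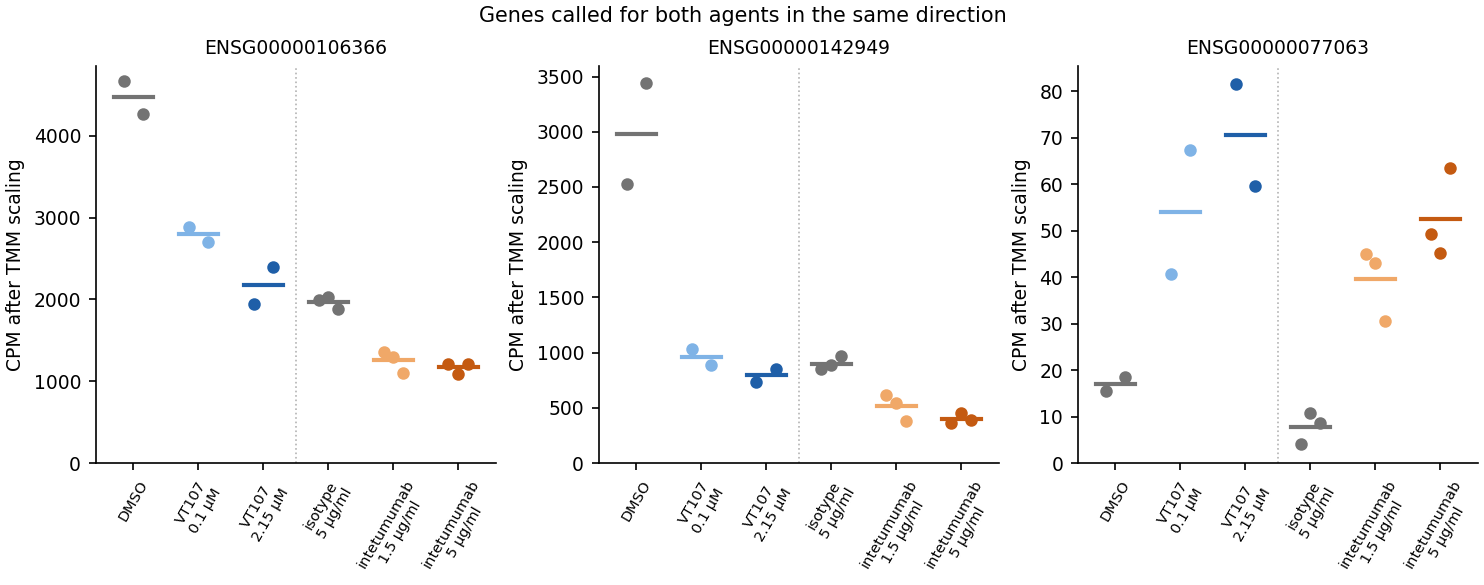
Points are libraries and bars are group means, as CPM after TMM scaling on a linear axis from 0, for 3 genes called for both agents. In each panel both treated groups lie on the same side of their own control, and the 2 falling genes start from a higher level in DMSO (4670 and 4271 CPM for the first) than with the isotype.

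Without isotype replicate 1, 2 or 3 or without intetumumab replicate 1, no gene was called for both agents. Without DMSO replicate 1 or 2 there were 6 and 5, without VT107 replicate 1 or 2 there were 3 each, and without intetumumab replicate 2 or 3 there were 3 and 4. With each experiment fitted apart 1 gene was called for both. The calls of ENSG00000106366 and ENSG00000142949 by the joint criterion were lost in 11 and 10 of 20 alternatives. Without DMSO replicate 2 both passed; without intetumumab replicate 3 the criterion passed 2 other genes, while ENSG00000106366 and ENSG00000142949 had an adjusted p of 0.0605 and 0.127. It passed 1 of them without DMSO replicate 1 or VT107 replicate 2, 1 other gene without intetumumab replicate 2, and 0 without VT107 replicate 1, any isotype replicate or intetumumab replicate 1. In those fits 118, 134, 146, 148 and 148 genes had a larger unadjusted p under 0.05, and DESeq2 on all libraries passed 25 genes. The mean of the 2 effects, which a single agent can move, was called in 174 genes (1.7%), 45 higher and 129 lower.

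Most genes that fell with VT107 had lower values with the antibody too. The antibody libraries do not enter the VT107 fold change, but they share its filter, scaling and estimate of spread, so the choice of these genes was not independent of them. Of the 112 genes that fell with VT107, 91 (81.2%) had a lower value with intetumumab, against 50.2% of all genes tested and 56.3% of genes in the top 10% by mean CPM. At an unadjusted p under 0.05, 34 of the 112 were lower with intetumumab (30.4%) and 3 higher, against 4.91% of all genes lower and 3.54% higher, and 13.6% of the top 10% lower. Their median intetumumab effect was -0.28, against -0.00136 for all genes, and stood between -0.30 and -0.23 in all 20 alternatives. The genes were not chosen again in these alternatives. DMSO and VT107 libraries are no part of this contrast, so leaving out a library of theirs could move the median little. Of the 112, 6 were called lower for intetumumab, against 14 of all 10227 genes and 12 of the 1023 in the top 10%. The controls also differed: DMSO stood above the isotype in 88 of the 112 genes (median log2 gap 0.70), against 5012 of all 10227 (median -0.02). Of all 155 VT107 calls 87 had a called difference between controls, against 13.5% of genes tested. The DMSO libraries enter both contrasts, so choosing genes by the VT107 effect favours such gaps. The part of the gap between controls in the VT107 effect was not tested.

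The difference was negative in 111 of the 112 genes, with a median of -0.98, although choosing genes for a large fall with VT107 favours that sign. It was negative at an unadjusted p under 0.05 in 91, against 427 of all 10227 genes. It was called in 4, which are all the called negative differences. The VT107 effect is a term of the difference, so these counts follow in part from the choice of genes.

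Of the 43 genes that rose with VT107, 25 were higher and 18 lower with intetumumab, against 5079 of all 10227 genes higher, and the median was 0.14. At an unadjusted p under 0.05, 10 (23.3%) were higher and 2 lower, against 3.54% of all genes higher and 4.91% lower. The median ranged from 0.08 to 0.25 over the alternatives, in which the genes were not chosen again. Controls differed here too: DMSO stood above the isotype in 8 of the 43 genes (median log2 gap -1.51), against 5012 of all 10227 (median -0.02). Choosing genes by a rise over DMSO favours such gaps, and the part of the gap in the VT107 effect was not tested. The median level with VT107 was 0.38 against that with intetumumab. In 4 of the 43 either DMSO or VT107 2.15 µM had no counts, so their fitted folds are not sizes. An example with 1 count in DMSO is ENSG00000189042, with 0 and 1 counts there and 72 and 88 with VT107 2.15 µM (adjusted p = 0.00181). It had 16, 39 and 36 counts with the isotype and 42, 27 and 48 with intetumumab (adjusted p = 0.703), groups that overlapped. Its level with VT107 2.15 µM was -0.21 against that with intetumumab 5 µg/ml on the log2 scale.

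**Figure D4:**
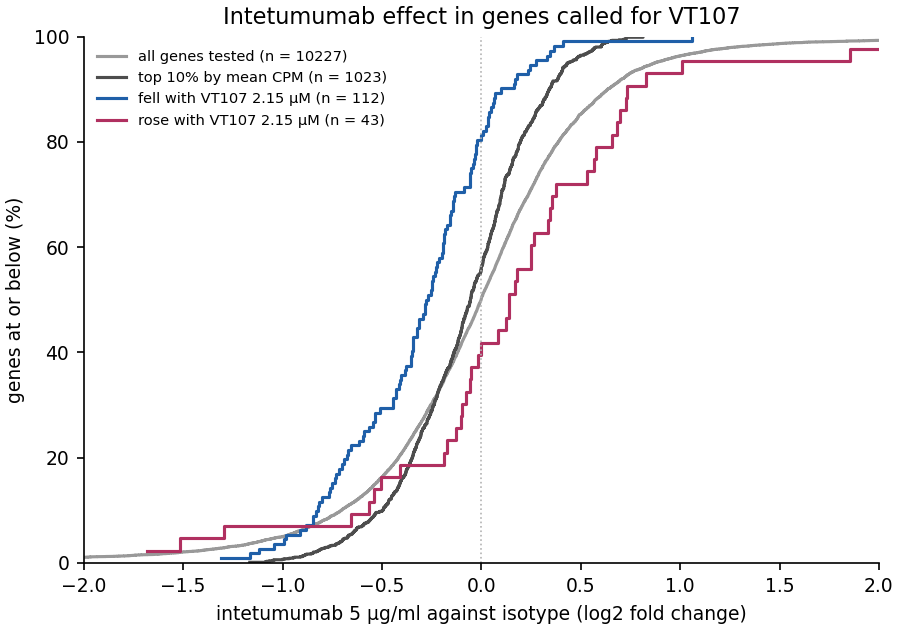
Cumulative share of genes (y axis, percent) by log2 fold change of intetumumab 5 µg/ml against isotype (x axis), for all 10227 genes tested, the 1023 in the top 10% by mean CPM, the 112 that fell and the 43 that rose with VT107. Around 0 the curve of the falls lies left of the others, and it reaches 81.2% there.

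ENSG00000171223, the gene with the smallest p for VT107, illustrates a fall that was larger with VT107 than with the antibody. It stood at 2185 and 1535 CPM in DMSO and at 412 and 341 CPM with VT107 2.15 µM. It stood at 762, 739 and 735 CPM with the isotype and at 450, 422 and 502 CPM with intetumumab. Both treated groups lay below their controls, and VT107 libraries lay below the intetumumab ones. The fold changes were -2.30 (SE 0.19, adjusted p = 1.31e-05) and -0.70 (SE 0.15, unadjusted p = 0.000303, adjusted p = 0.112), and the difference of -1.60 was called (SE 0.24, adjusted p = 0.0189). DMSO exceeded the isotype by 1.32 on the log2 scale, while the level with VT107 was -0.28 against that with intetumumab.

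Read the other way, 10 of the 14 genes that intetumumab lowered (71.4%) were lower with VT107, against 47.8% of all genes and 60.7% of the top 10% by mean CPM. Of the 14, 8 were lower at an unadjusted p under 0.05 (57.1%, against 6.76% of all genes and 21.4% of the top 10%). With VT107 6 of the 14 were called lower, against 112 of all 10227 genes and 71 of the 1023 in the top 10%. Their median VT107 effect was -0.54. In 4 of the 14 the VT107 value was above 0.

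The 2 genes with the smallest p among intetumumab's falls had no called difference. ENSG00000167767 went from 364, 370 and 336 CPM with the isotype to 157, 181 and 165 CPM with intetumumab 5 µg/ml (fold change -1.09, SE 0.15, adjusted p = 0.0112). In DMSO it was at 349 and 336 CPM and with VT107 2.15 µM at 210 and 224 CPM (fold change -0.65, SE 0.18, adjusted p = 0.0974). Controls of the 2 experiments were level here, and libraries of both agents lay below them. Its difference was 0.43 with a 95% interval of -0.06 to 0.92, and all its counts were even. At VT107 0.1 µM the fold change was -1.28 (adjusted p = 0.00416), larger in size than at the higher dose.

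ENSG00000140416 had a small fall with the antibody. Isotype libraries held 6430, 6773 and 6330 CPM and intetumumab libraries 4461, 4415 and 4797 CPM. DMSO libraries held 6196 and 5916 CPM and VT107 2.15 µM libraries 5418 and 5773 CPM. The fold changes were -0.51 with intetumumab (SE 0.07, adjusted p = 0.0112) and -0.11 with VT107 (SE 0.09, adjusted p = 0.646). The difference of 0.40 (95% interval 0.16 to 0.64) did not pass over all genes (adjusted p = 0.259). Both of these falls lost their call without isotype replicate 1, 2 or 3 or intetumumab replicate 1 (adjusted p = 0.0506 to 0.0766). So did the rise of ENSG00000077063 with intetumumab (0.0506 to 0.0751). The next value upward with intetumumab after that rise, ENSG00000116044, did not pass (fold change 0.73, SE 0.16, adjusted p = 0.126), and its VT107 value was 0.48 (adjusted p = 0.313).

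**Figure D5:**
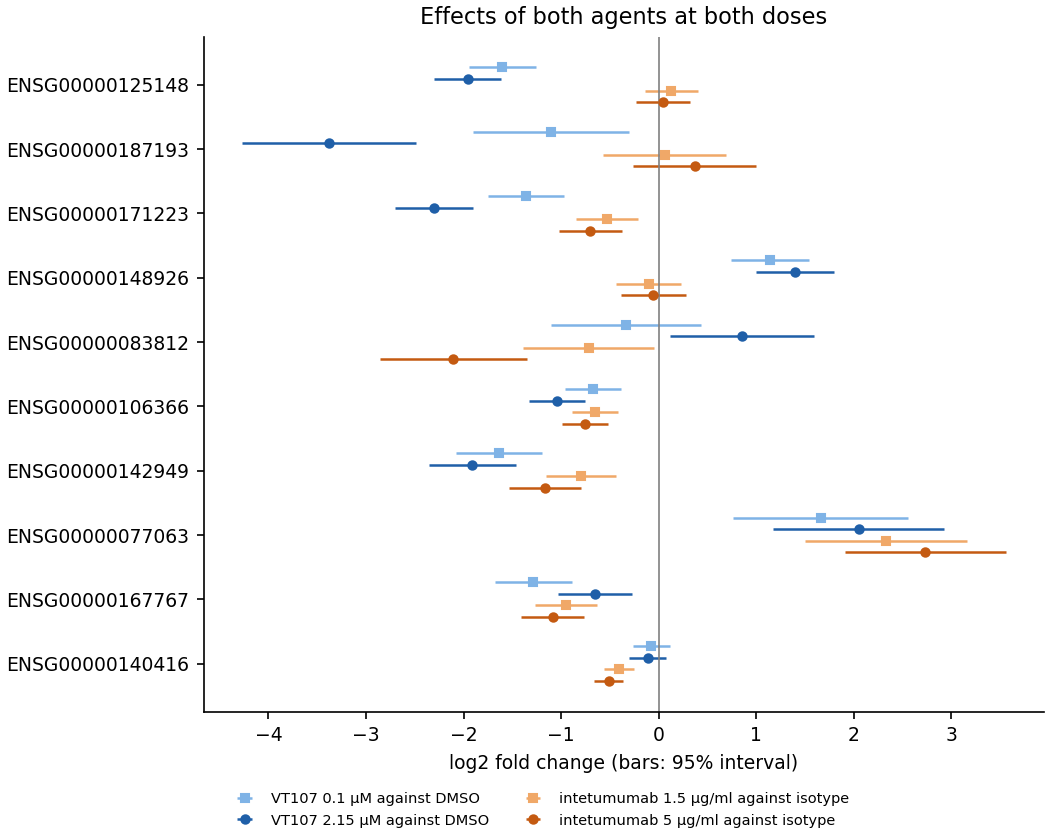
Log2 fold change with its 95% interval (x axis) for 10 genes (y axis), for each agent and dose against its own control. The top 3 genes are furthest left with VT107 2.15 µM (-1.96, -3.38 and -2.30), and ENSG00000083812 has its lowest value with intetumumab 5 µg/ml (-2.11). ENSG00000106366, ENSG00000142949 and ENSG00000077063 have all 4 effects on 1 side of 0, and so do ENSG00000171223, ENSG00000167767 and ENSG00000140416.

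Reads that carry T>C changes without thiouridine were few in these genes. In the unlabelled library of the VT107 experiment the genes named here had 0 to 24 counts, and in that of the intetumumab experiment 0 to 4, single libraries without a replicate.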

How the data were processed

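The authors deposited raw counts of reads from newly made transcripts, obtained with SLAM DUNK per the series design text. The submitters' processing notes name build GRCh38. Not given in the sources used here: the SLAM DUNK version, the annotation, the T>C threshold and the handling of multimapping reads. Libraries were QuantSeq 3′ libraries, per the labels' protocols.

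Counts of all 15 labelled libraries (6 groups) were filtered with filterByExpr (minimum count 10), scaled by TMM and fitted together in edgeR 4.0.16 under R 4.3.3, so that both effects and their difference lie on 1 scale. Tests were two-sided quasi-likelihood F-tests. Intervals are 95% intervals from the fit. The code was tested on simulated data. DESeq2 1.42.0 and voom of limma 3.58.1 were among the alternatives, as were other scalings and filters, other sets of libraries, a replicate block and each library left out in turn. The genes named have the smallest p in each direction, up to 2 IDs per direction and comparison. This cap is narrower than the rule written first, which took up to 10. The comparison, the 21 gene lists and the tests were chosen with earlier results of these data known. None of the lists could be used, because IDs were not paired with symbols. For the same reason no promoter sequence is shown. Counting error is not the only error here, since reads of 1 molecule copied in amplification are not independent.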

Additional observations from a re-analysis of the deposited data

Results flagged for a closer look

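The effect against the control differed between VT107 2.15 µM and intetumumab 5 µg/ml in 8 genes by the test of the difference itself. The difference in log2 fold change, VT107 minus intetumumab, was -2.005 for ENSG00000125148, -3.75 for ENSG00000187193, 1.45 for ENSG00000148926 and 2.96 for ENSG00000083812. DMSO and isotype levels, which also enter that test, differed in 5 of the 8, against 13.5% of all genes tested. The part of that gap in the differences was not tested. Groups of 2 or 3 libraries are too small for a test of single outlying samples.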

How the results depend on the processing

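None of the 16 gene values recomputed changed sign in an alternative that tested it, but the intetumumab effects near 0 of ENSG00000125148 (-0.02 to 0.10) and ENSG00000148926 (-0.19 to 0.02) did. Calls depended on the tool: DESeq2 gave 104 for the difference, 382 for VT107, 109 for intetumumab, 25 by the joint criterion and 402 for the mean effect, while voom gave 5 for the difference, 23 for intetumumab and 6 by the joint criterion. Without the filter there were 42, 48, 4 and 267 calls for the difference, intetumumab, the joint criterion and the mean effect. The joint criterion passed 4 genes with DESeq2-type size factors and 5 among genes with a mean of at least 50 counts. The 10 compared libraries alone gave 2 differences. Experiments fitted apart gave 11 calls for VT107, 8 for intetumumab and 0 by the joint criterion (142 genes at an unadjusted p under 0.05), from fewer libraries per fit. With the replicate number as a block there were 4 differences, 97 calls for VT107 and 0 by the joint criterion (179 at an unadjusted p under 0.05). Same-numbered libraries did not deviate together over all tested genes (correlations -0.0161 to -0.00255). Counting noise in genes of low count can hide a shared deviation, so this does not settle whether the numbers pair libraries. Leaving out 1 library gave 1 to 25 differences, 23 to 186 calls for VT107, 0 to 15 for intetumumab, 0 to 2 by the joint criterion and 56 to 217 for the mean effect. Total count scaling gave 61 higher and 61 lower mean effects. Genes of low count, such as ENSG00000083812, are limited by depth.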
